A study of Mus musculus with 10 samples.

Results

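The 9 genes described here, Msh4, Msh5, Mlh3, Rnf212, Ccnb1ip1, Hfm1, Cntd1, Mus81 and Blm, act where meiotic recombination intermediates are turned into crossovers or resolved in other ways. They were taken from a list of gene names with no threshold on their values, but the list was chosen with earlier results of these data known. All 9 had a row among the 28125 genes of the scRNA-seq matrix and the 30657 nuclear genes of the scATAC-seq matrix. Both matrices give 1 value per gene in each of 13 cell populations of the mouse testis. RNA and accessible chromatin were read from nuclei of the same testes, with 1 library per condition and assay: wild-type testes at 11, 17 and 25 days postpartum (dpp) and adult testes (8 weeks) of Cre/+ and of Nfya-CKO animals. All were on a C57BL/6J background. In Nfya-CKO mice a Cre driven from the Stra8 locus removes exons 5 and 6 of Nfya, the gene of 1 subunit of the CCAAT-binding factor NF-Y, so somatic cells keep the gene. Cre/+ mice carry the same Cre without the deletion. Stra8 RNA was at 2.05 UMIs per 10000 in undifferentiated spermatogonia, 2.58 in differentiating spermatogonia, 4.86 in preleptotene cells (pL) and 2.67 in the next population, early leptotene to zygotene, and under 1 in each later germ cell population.

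In prophase I of meiosis, double-strand breaks are repaired from the homologous chromosome, and a minority of the repair intermediates become crossovers, which hold the homologs together until they segregate. MSH4 and MSH5 are MutS proteins without a role in mismatch correction: as a pair they bind and stabilise recombination intermediates. HFM1 is a helicase that promotes crossing over, RNF212 and CCNB1IP1 (also HEI10) are RING-domain proteins that act against each other in keeping or removing pro-crossover factors, and CNTD1 is a cyclin-like protein needed to reduce those factors to the future crossover sites. MLH3 is a subunit of the endonuclease that resolves most crossovers in middle and late pachytene. MUS81 is the catalytic subunit of a second, minor resolving nuclease, and BLM is a helicase that dissolves intermediates without crossing over.

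The 9 control germ cell populations, named by the authors from markers, were undifferentiated spermatogonia (1292 cells), differentiating spermatogonia (927), preleptotene (pL, 1761), early leptotene to zygotene (eL/L/Z, 5705), leptotene to early pachytene (L/Z/eP, 8107), middle and late pachytene (mP/lP, 5055), diplotene (D, 4145), round spermatids (RS, 7325) and elongating spermatids (ES, 1195). The other 4 were spermatogonia that all came from the Nfya-CKO library (491 cells), Sertoli cells (3265), other somatic cells (5883) and cells the authors left unknown (99). Library totals ranged from 30227701 to 64967271 UMIs over 3746 to 18039 cells. Of 39716 distinct barcodes, 5037 occurred in more than 1 library. The matrices pool the libraries, and the libraries fill the populations unequally. Wild-type juveniles gave 92.0% of undifferentiated spermatogonia, 99.7% of pL, 98.6% of eL/L/Z, 97.2% of L/Z/eP and 72.0% of mP/lP cells. The 25 dpp library alone gave 93.5% of L/Z/eP and 70.7% of mP/lP cells, but 2.16% of pL. Cre/+ gave 84.5% of differentiating spermatogonia, 77.0% of RS and 99.6% of ES. Stage, age of the mouse and library can therefore not be told apart at those steps. No value has a replicate, so no test was run and a difference is given by its size alone. RNA levels are the mean over cells of UMIs per 10000 UMIs of a cell. In these units, 1 UMI in 1 cell of median depth adds between 0.000281 and 0.0213 to a population's mean, and under 0.0033 in all populations other than unknown.

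The populations carried their own markers with exceptions, among them the following, which bear on the values below. Zbtb16, a factor of undifferentiated spermatogonia, was at 8.75 UMIs per 10000 in that population, 4.15 in spermatogonia of Nfya-CKO and 1.20 in differentiating spermatogonia. Of the 4 markers of that list, 2 were higher in Nfya-CKO than in control undifferentiated spermatogonia, Gfra1 at 1.20 against 1.08 and Etv5 at 1.11 against 0.760, and none was higher in differentiating spermatogonia. In differentiating spermatogonia all 8 round and elongating spermatid markers were above their level in undifferentiated spermatogonia, and the 4 elongating spermatid markers summed to 9.88 against 0.511 in undifferentiated spermatogonia and 0.0149 in pL. In spermatogonia of Nfya-CKO all 4 Leydig cell markers were higher than in undifferentiated spermatogonia. Their sum was 49.02 against 0.194, most of it Insl3 at 39.8. The Sertoli list summed to 24.4 against 3.70, most of it Clu at 22.8. Of its 5 genes 4 were higher and Amh was lower, at 0.0116 against 0.0431. Clu was at 34.1 in Sertoli cells and 91.5 in other somatic cells, so it does not single out Sertoli cells here. In ES the Sertoli list summed to 35.9, most of it Clu at 31.3. The part of this RNA from other cells in the values of the crossover genes was not tested. Neighbouring stages also shared markers. The list of differentiating spermatogonia summed to 8.74 in pL and 6.01 in its own population. The diplotene list summed to 1.56 in L/Z/eP and 1.22 in D.

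Over the control germ cells, most crossover genes reached their highest RNA level in prophase I, but not at one common stage. In 6 of 9 the highest of the 9 populations was a prophase spermatocyte population, split evenly between L/Z/eP and mP/lP (3 each), against 24.2% of the 15250 genes whose mean over the populations reached 0.05 UMIs per 10000. Msh4, Msh5, Mlh3, Hfm1 and Cntd1, 5 of 9, were at least 2-fold higher in their highest prophase population than in undifferentiated spermatogonia, against 23.7% of all genes. Counts of genes at least 2-fold apart, and log2 ratios, were made on the log2(value + 0.1) scale, whereas a fold printed for a single gene is the plain ratio of its levels. The count of 5 was 4 once centred on the median of all genes, 4 with a pseudocount of 0.5, 6 with 0.02 and 7 with none. The median of the members in this comparison was 1.19 on the log2 scale, beside 0.30 over all genes. The exceptions were Rnf212, highest in undifferentiated spermatogonia, Blm, highest in pL, and Mus81, highest in RS.

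**Figure D1:**
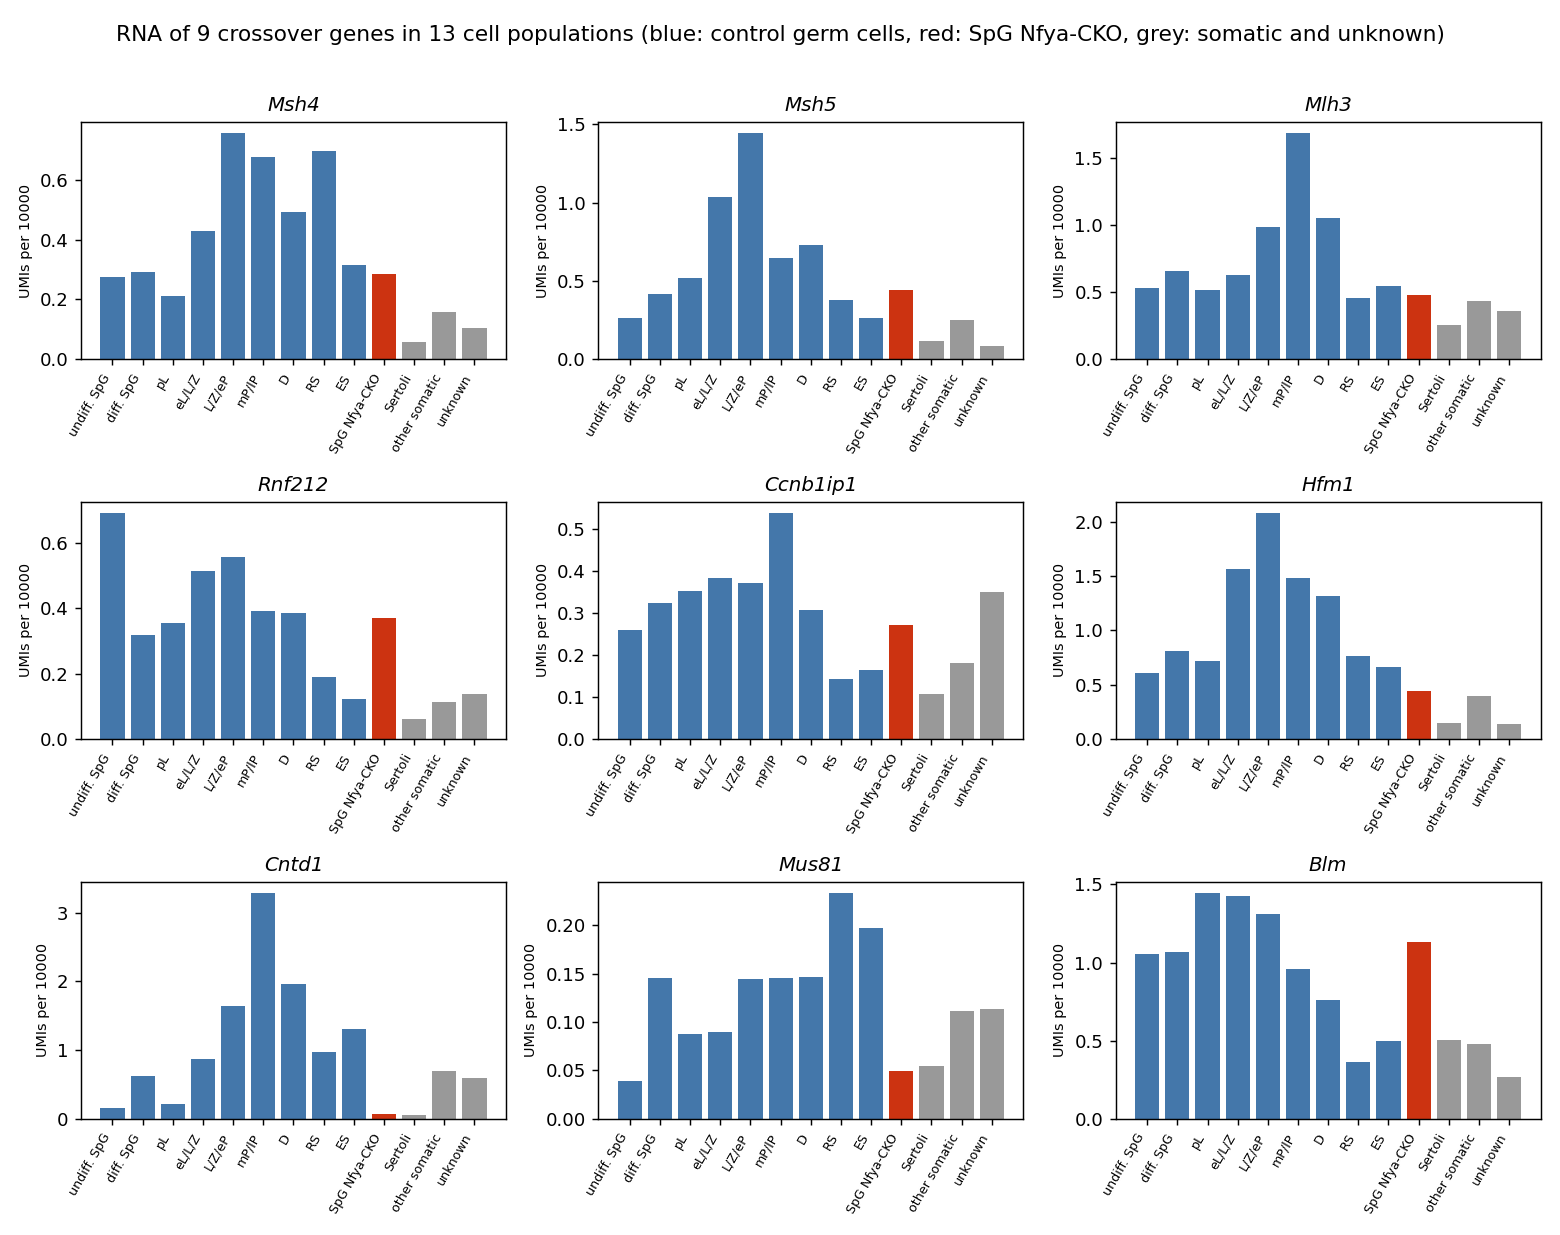
RNA level (mean UMIs per 10000 UMIs of a cell, y axis from 0, own scale per gene) of each crossover gene in 13 populations, 1 pooled value per bar, with no error since there are no replicates. Msh4, Msh5 and Hfm1 are highest in L/Z/eP, Mlh3, Ccnb1ip1 and Cntd1 in mP/lP, and Rnf212 in undifferentiated spermatogonia.

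The MutS pair and the helicase HFM1, which act early at the intermediates, were highest in L/Z/eP. Msh5 (chr17:35028605-35046997, GRCm38) was at 0.261 UMIs per 10000 in undifferentiated spermatogonia, 0.416 in differentiating spermatogonia, 0.520 in pL, 1.04 in eL/L/Z, 1.44 in L/Z/eP, 0.646 in mP/lP, 0.730 in D, 0.380 in RS and 0.260 in ES. Its level was thus higher at each step up to L/Z/eP, where it was 5.53-fold that of undifferentiated spermatogonia, and was 2.23-fold lower in mP/lP. Msh4 (chr3:153857141-153906138) was at 0.275, 0.293 and 0.211 in the undifferentiated, differentiating and pL cells, at 0.430 in eL/L/Z, 0.756 in L/Z/eP, 0.676 in mP/lP and 0.494 in D, and again at 0.696 in RS before 0.314 in ES. The encoded proteins work as a pair, yet the transcripts parted after L/Z/eP: in RS, Msh4 was 1.08-fold and Msh5 3.79-fold below its own maximum. Pearson's r between both genes over the 9 populations was 0.55, a description of 9 points that share libraries.

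Hfm1 (chr5:106840193-106926712) was at 0.608 in undifferentiated spermatogonia, 0.807 in differentiating spermatogonia, 0.718 in pL, 1.57 in eL/L/Z, 2.08 in L/Z/eP, 1.49 in mP/lP, 1.32 in D, 0.761 in RS and 0.662 in ES. Its shape was closest to that of Msh5 among the members (r = 0.94 over 9 populations), with a longer decline: in mP/lP Hfm1 was 1.40-fold and Msh5 2.23-fold below its L/Z/eP level.

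Cntd1, Mlh3 and Ccnb1ip1 were highest in mP/lP. Cntd1 (chr11:101279203-101288701) had the widest range of the 9 genes. It was at 0.157 UMIs per 10000 in undifferentiated spermatogonia, 0.625 in differentiating spermatogonia, 0.222 in pL, 0.865 in eL/L/Z, 1.64 in L/Z/eP, 3.29 in mP/lP, 1.97 in D, 0.973 in RS and 1.30 in ES. The mP/lP level was 20.9-fold that of undifferentiated spermatogonia and 1.67-fold that of D, the next highest. Differentiating spermatogonia stood out of the sequence, 3.97-fold above undifferentiated spermatogonia and 2.82-fold above pL, in the population that also held the spermatid markers.

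Mlh3 (chr12:85234466-85270647) stayed between 0.515 and 0.659 from undifferentiated spermatogonia to eL/L/Z, and then was at 0.985 in L/Z/eP, 1.68 in mP/lP, 1.05 in D, 0.453 in RS and 0.546 in ES. It was 3.18-fold higher in mP/lP than in undifferentiated spermatogonia. Ccnb1ip1 (chr14:50789249-50795728) went from 0.259 in undifferentiated spermatogonia to 0.384 in eL/L/Z and 0.371 in L/Z/eP, with 0.538 in mP/lP, 0.306 in D, 0.144 in RS and 0.163 in ES. Its 2.07-fold difference between mP/lP and undifferentiated spermatogonia fell short of 2-fold once the pseudocount of 0.1 was added.

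Rnf212, whose product opposes that of Ccnb1ip1, had its highest level outside meiosis. Rnf212 (chr5:108728105-108775067) was at 0.692 in undifferentiated spermatogonia, 0.317 in differentiating spermatogonia, 0.354 in pL, 0.513 in eL/L/Z, 0.558 in L/Z/eP, 0.393 in mP/lP, 0.385 in D, 0.189 in RS and 0.122 in ES. The values form 2 maxima, of which that in spermatogonia was 1.24-fold the one in L/Z/eP, and the undifferentiated value rests on about 953 UMIs. Its paralog Rnf212b was at 0.675 in undifferentiated spermatogonia and 0.815 in L/Z/eP, its highest population.

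Blm (chr7:80454993-80535148), which also serves dividing cells, was high in spermatogonia and declined through prophase: 1.05 in undifferentiated and 1.06 in differentiating spermatogonia, 1.45 in pL, 1.42 in eL/L/Z, 1.31 in L/Z/eP, 0.959 in mP/lP, 0.759 in D, 0.361 in RS and 0.497 in ES. The pL and eL/L/Z values were 1.01-fold apart. Mus81 (chr19:5482561-5488389) was at 0.0391 in undifferentiated spermatogonia, on about 54 UMIs, 0.145 in differentiating spermatogonia, 0.0879 in pL, 0.0894 in eL/L/Z, 0.145 in both L/Z/eP and mP/lP, 0.147 in D, 0.234 in RS and 0.197 in ES. It ran opposite to Rnf212 (r = -0.79) and Blm (r = -0.72) over the 9 populations.

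Between neighbouring stages at most 2 of 9 members were 2-fold apart in either direction with the pseudocount of 0.1, and up to 5 of 9 in the plain ratios. Shares of all genes at least 2-fold apart were computed with that pseudocount alone. They cannot be set beside the plain ratios, which low values pass more easily. From undifferentiated to differentiating spermatogonia 1 of 9 was at least 2-fold higher (Cntd1, against 9.57% of all genes), and from there to pL the same gene was the 1 of 9 at least 2-fold lower (against 10.9%). In plain ratios Mus81 was also 3.71-fold higher and Rnf212 2.18-fold lower at the first of these steps. From pL to eL/L/Z 2 of 9 were higher, Cntd1 at 3.91-fold and Hfm1 at 2.18-fold (against 4.41%), and Msh4, at 2.04-fold, was so in the plain ratio alone. Msh5 was the 1 of 9 at least 2-fold lower from L/Z/eP to mP/lP (against 3.54%), where Cntd1 was 2.0-fold higher in the plain ratio alone. Mlh3, 2.31-fold lower, was the 1 of 9 from D to RS (against 3.34%). In plain ratios Ccnb1ip1 (2.13-fold), Blm (2.10-fold), Rnf212 (2.03-fold) and Cntd1 (2.02-fold) were also over 2-fold lower at that last step. There, 7 of 9 members had a lower value (against 63.0% of all genes), with a median of -0.75 on the log2 scale beside -0.17 over all genes. From RS to ES no member was 2-fold apart with the pseudocount, and Msh4 was 2.22-fold lower in the plain ratio.

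The genes most like each member over the 9 germ cell populations, by Pearson's r of log2(value + 0.1), were led by Tagap1 for Msh4 (r = 0.98), March3 for Msh5 (0.96), Edc4 for Mlh3 (0.98), Zranb3 for Rnf212 (0.98), Mrto4 for Ccnb1ip1 (0.98), Gm35911 for Hfm1 (0.98), 4930524B15Rik for Cntd1 (0.99), Pias2 for Mus81 (0.97) and Trim33 for Blm (0.99). The search took in genes with a highest value of at least 0.5, and the values describe 9 points that share libraries. Among the 3 genes nearest to each member, Rad51ap2 and Pnisr stood beside Hfm1 (both 0.98), Ccdc155, a protein that ties meiotic telomeres to the nuclear envelope, beside Cntd1 (0.99), and Ift88 and Cep290, cilium genes, beside Msh4 (both 0.97). No member was among the nearest 3 of another over these 9 populations, while over all 13 Hfm1 was the second nearest gene to Msh5 (r = 0.94).

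Of 26 partner genes of the same pathways, 25 had a row, Shoc1 under the older name AI481877. Their highest germ cell population was pL in 7 (17.8% of all genes), eL/L/Z in 7 (4.73%), L/Z/eP in 2 (4.91%), mP/lP in 4 (11.3%), D in 2, and differentiating spermatogonia, RS and ES in 1 each. In 2 of 25 the highest prophase population was at least 2-fold above undifferentiated spermatogonia: Slx4, the scaffold of the structure-specific nucleases, went from 0.242 to 1.27 in D, and Eme2, a partner subunit of MUS81, from 0.0351 to 0.257 in mP/lP. Mismatch repair genes that serve replication were highest in or before zygotene, Msh6 at 0.618 in pL, Pms2 at 0.641 in pL and Msh3 at 0.623 in eL/L/Z. Pms1 was 2.62-fold lower in L/Z/eP than in eL/L/Z, at the step where Msh5 was 1.39-fold higher. Tex11, a crossover factor of the X chromosome, was 3.17-fold lower in mP/lP than in L/Z/eP, and Brip1, a helicase of crosslink repair, 3.09-fold lower.

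**Figure D2:**
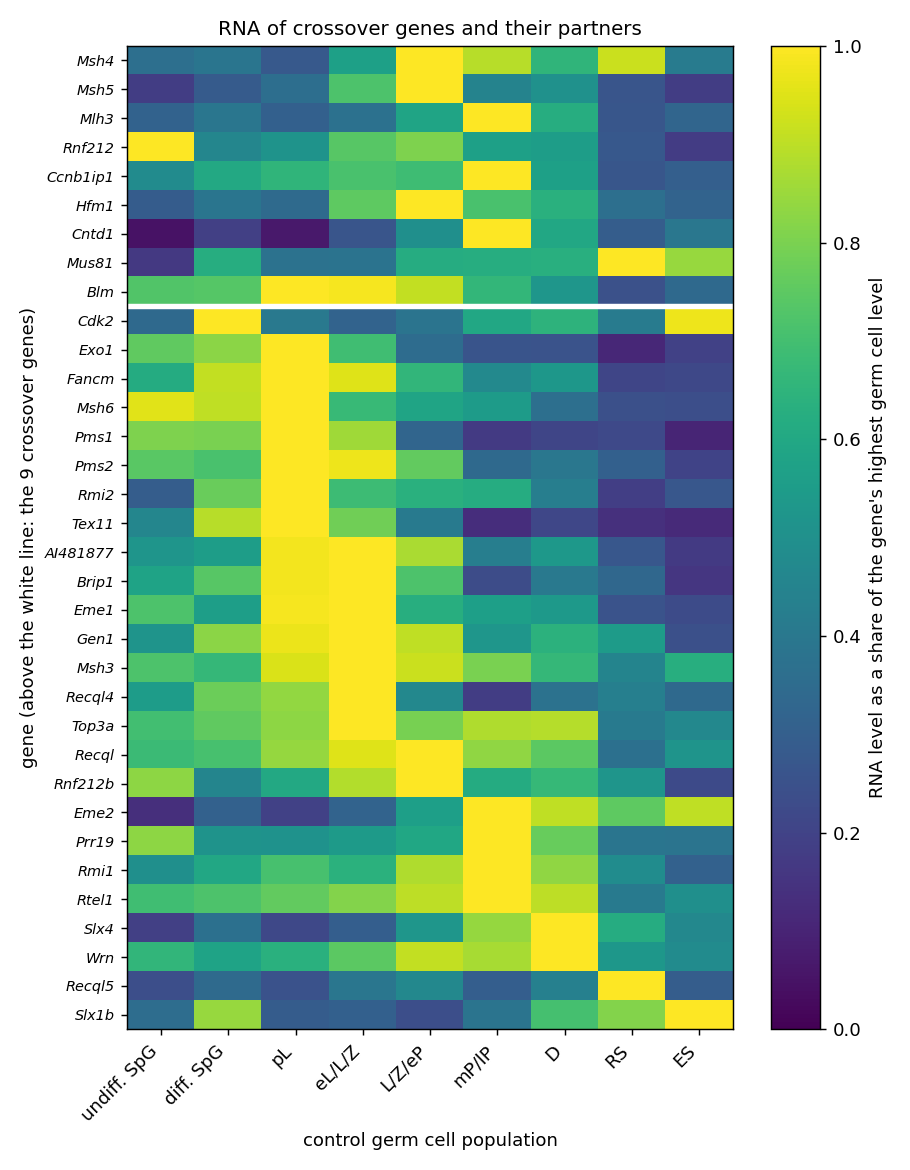
RNA level of the 9 members (above the white line) and 25 partner genes (sorted by their highest population) in 9 control germ cell populations, as a share of each gene's own highest level. Most partners are brightest in pL or eL/L/Z, while Msh4, Msh5 and Hfm1 are brightest in L/Z/eP and Mlh3, Ccnb1ip1 and Cntd1 in mP/lP.

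Sertoli cells, of which 99.9% came from juveniles, had 3 of 9 members at least 2-fold below undifferentiated spermatogonia (against 16.9% of all genes): Rnf212 at 0.0624 (11.1-fold lower), Msh4 at 0.0583 (4.72-fold) and Hfm1 at 0.148 (4.12-fold). The partners gave 11 of 25. A further 5 were between 2.07-fold (Mlh3, at 0.255) and 2.67-fold (Cntd1, at 0.0589) lower, but under 2-fold with the pseudocount: these and Ccnb1ip1, Msh5 and Blm. Mus81, at 0.0551, was 1.41-fold above undifferentiated spermatogonia. Other somatic cells, 78.8% of them from the Nfya-CKO library, had Cntd1 at 0.696 against 0.0589 in Sertoli cells. The other somatic cells also held germ cell RNA. The pachytene marker Piwil1 was at 1.57 against 0.0771 in Sertoli cells, and the 4 elongating spermatid markers at a sum of 4.77 against 0.0109. The part of this RNA in the values of Cntd1 and the other members was not tested.

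The comparison of spermatogonia between Nfya-CKO and controls asks whether the crossover genes change before meiosis when NF-Y is lost. Nfya RNA itself was at 1.10 UMIs per 10000 in the spermatogonia labelled Nfya-CKO against 0.456 in control undifferentiated ones, 2.43-fold higher. Exons outside the deletion contribute to that value, so it does not check the label. Controls were mostly juvenile and the Nfya-CKO library adult, so genotype, age and library cannot be told apart, and Cre/+ gave 102 of the 1292 control cells. The RNA of the Leydig cell markers and of Clu in the Nfya-CKO spermatogonia, given above, stands beside all values of this comparison. These spermatogonia also had a median of 18360 UMIs per cell, against 9290 in the undifferentiated controls. Their mean share of mitochondrial UMIs was 0.39% against 0.95%. The part of these differences in the ratios was not tested.

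No member was at least 2-fold apart in RNA with the pseudocount of 0.1: 0 of 9 were lower (against 3.08% of all genes) and 0 of 9 higher (against 4.09%), and the median was 0.03 on the log2 scale beside 0.01 over all genes. Msh5 had the highest ratio, from 0.261 to 0.442 (log2 ratio 0.59, about 359 and 433 UMIs). Rnf212 had the lowest with the pseudocount of 0.1, from 0.692 to 0.372 (-0.75). With a pseudocount of 0.02 (-0.98 against -0.86 for Rnf212) and with none, Cntd1 was the lowest. Cntd1 went from 0.157 to 0.0701, 2.25-fold lower without a pseudocount and -0.60 on the log2 scale with it, on about 217 and 69 UMIs. Markers of later germ cells did not all go the same way: none of 3 diplotene, 4 round spermatid and 4 elongating spermatid markers was higher in Nfya-CKO spermatogonia, with sums of the last list of 0.511 and 0.103. Of the 4 pachytene markers Piwil1 was lower (0.712 and 0.255), Tbpl1 was at 0.987 and 0.970, Ovol2 at 0.202 and 0.223 and Spag6 at 0.0414 and 0.0431, and 2 of 4 leptotene and zygotene markers were higher, Sycp3 at 0.673 and 1.15 among them. The part of this in the Cntd1 difference was not tested. Hfm1 went from 0.608 to 0.440 (-0.39). The other 5 were within 0.12 of 0 in either direction: Mlh3 at 0.529 and 0.481, Msh4 at 0.275 and 0.284, Ccnb1ip1 at 0.259 and 0.270, Mus81 at 0.0391 and 0.0491 and Blm at 1.05 and 1.13. Of the 25 partners 2 were at least 2-fold higher and 0 lower. Slx1b, a subunit of the SLX4-bound nuclease, was at 0.158 and 0.849 (1.88), and Cdk2, a kinase present at crossover sites, at 0.512 and 1.23 (1.12). In other somatic cells Slx1b was at 0.619 and Cdk2 at 1.57. The part of RNA from somatic cells in these 2 ratios was not tested.

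The values depend on which control stage is used. Against differentiating spermatogonia the median of the members was -0.19, and Cntd1, in the population with spermatid RNA, was the 1 member at least 2-fold lower (8.92-fold without a pseudocount), against 10.5% of all genes, and Mus81 was 2.96-fold lower without it. Against pL the median was -0.29 beside 0.08 over all genes, with 7 of 9 values lower (against 42.3% of all genes) and none 2-fold apart with the pseudocount, although Cntd1 was 3.16-fold lower without it. The log2 ratio of Msh5 was 0.07 against differentiating spermatogonia and -0.19 against pL, and that of Rnf212 0.18 and 0.06, so neither gene kept the direction it had against undifferentiated spermatogonia in every comparison.

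**Figure D3:**
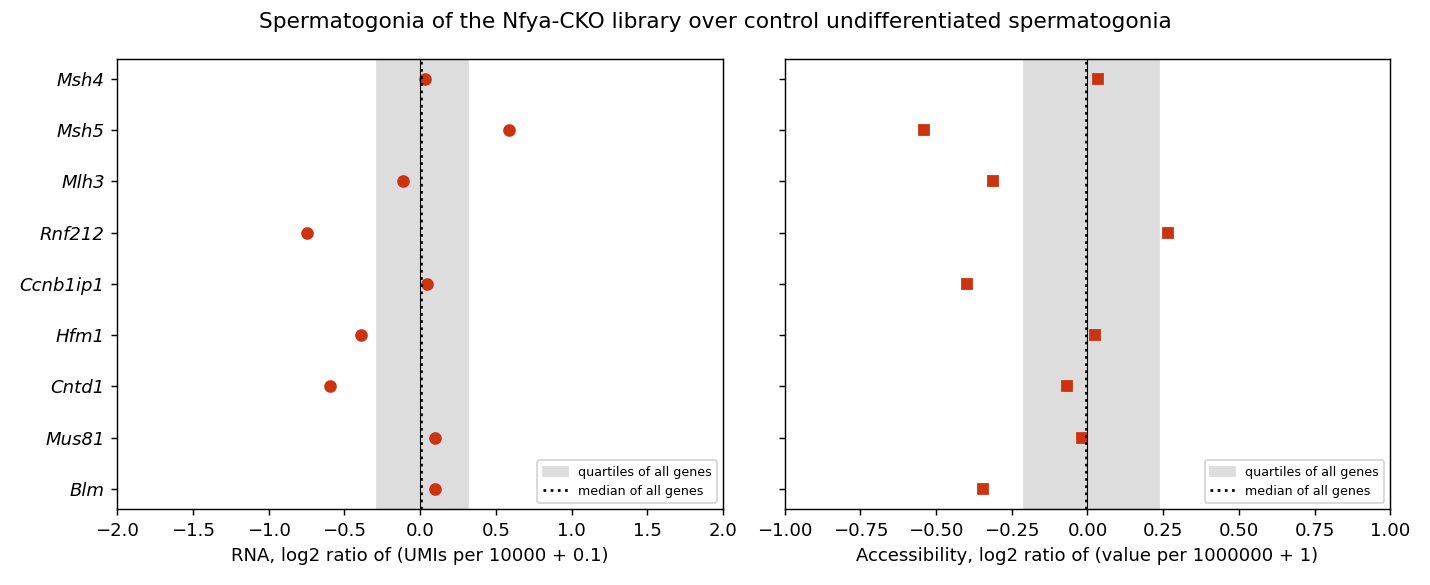
Log2 ratio of spermatogonia of the Nfya-CKO library over control undifferentiated spermatogonia for the 9 members, in RNA (left, value + 0.1) and accessibility (right, value per 1000000 + 1), 1 point per gene; the grey band spans the lower to the upper quartile and the dotted line the median of all genes passing the filter. No point reaches 1 or -1, and Msh5 lies to the right in RNA and to the left in accessibility.

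NF-Y recognises the pentamer CCAAT, so the 250 bases before the RefSeq start site (GRCm38.p6) of each member were searched on both strands. CCAAT was present in 5 of 9 windows, against 34.5% of 27025 promoters of the same length, and at least 2 matches in 2 of 9, Msh5 with 3 and Blm with 2, against 10.5%. Msh4, Ccnb1ip1, Hfm1 and Mus81 had none. The gene in RefSeq begins upstream of the start used for 7 of the 9 genes, by 10 bases in Mus81, 40 in Rnf212, 48 in Mlh3 and 150 in Blm, all within the window, and by 375 in Msh5, 822 in Hfm1 and 1247 in Msh4. Bases beyond the window were not searched. Stretches of 30 bases are shown, 5′ to 3′ on the strand of the gene, with CCAAT or its reverse complement ATTGG in capitals.
Msh5, 248 to 219 bases before the start, chr17:35046841-35046870, minus strand: cgcccCCAATgcaaacggaCCAATcgacat
Msh5, 60 to 31 bases before the start, chr17:35046653-35046682, minus strand: aaagtgctgcgaATTGGcggctccagtggg
Blm, 186 to 157 bases before the start, chr7:80535155-80535184, minus strand: ATTGGttagatccttcagggattacCCAAT
Mlh3, 117 to 88 bases before the start, chr12:85270687-85270716, minus strand: acaaaagaactaATTGGaacccgccaggtg
Rnf212, 120 to 91 bases before the start, chr5:108775118-108775147, minus strand: cttccccacaggATTGGttctgtatcggtt
Cntd1, 118 to 89 bases before the start, chr11:101279085-101279114, plus strand: ccctgctttctgATTGGctgagctctctgt

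The Cntd1 stretch lies within a GENCODE exon of Coa3, the neighbour on the other strand, and of a Cntd1 transcript that starts further upstream. The first Msh5 stretch lies in an exon of a predicted RefSeq transcript of Msh5, and the other CCAAT stretches in no annotated exon. CNCCTCAG, the element bound by STRA8, the activator of meiotic entry, was present in 2 of 9 members, Msh5 and Hfm1, against 6.39% of promoters. Both matches are on the reverse strand and are shown with the element in capitals. The Msh5 stretch overlaps a GENCODE and a curated RefSeq exon of Msh5, and the Hfm1 stretch an exon of a predicted RefSeq transcript of Hfm1.
Msh5, 93 to 64 bases before the start, chr17:35046686-35046715, minus strand: gatcgtcgcggCTGAGGTGacggaaaaggc
Hfm1, 77 to 48 bases before the start, chr5:106925938-106925967, minus strand: cggcctgaggcCTGAGGCGcaccgtgcggt

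AACGG, a core of MYB sites, occurred in Msh5 and Cntd1 (against 14.8% of promoters), the GC box GGGCGG in Msh5, Rnf212, Cntd1 and Blm (32.9%), and the CRE TGACGTCA in none (1.62%). A match describes these letters and does not show that the factor binds.

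Accessibility of the members differed far less between populations than RNA. Values are given per 1000000 of the signal over nuclear genes, because mitochondrial genes took between 31.2% and 64.5% of the signal of a population. The methods define promoter accessibility by mean coverage close to the start site, but do not say that this matrix was made so. From undifferentiated spermatogonia to mP/lP, 8 of 9 members had a higher value (against 46.7% of the 18020 genes whose mean reached 10 per 1000000), with a median ratio of 1.17 beside 0.96 over all genes. With mitochondrial genes in the total the median ratio was 0.791. Cntd1, 20.9-fold apart in RNA between these populations, was at 52.9 and 84.0 per 1000000 (ratio 1.58). Mus81 was the exception, at 134.7 and 111.8 (0.83).

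**Figure D4:**
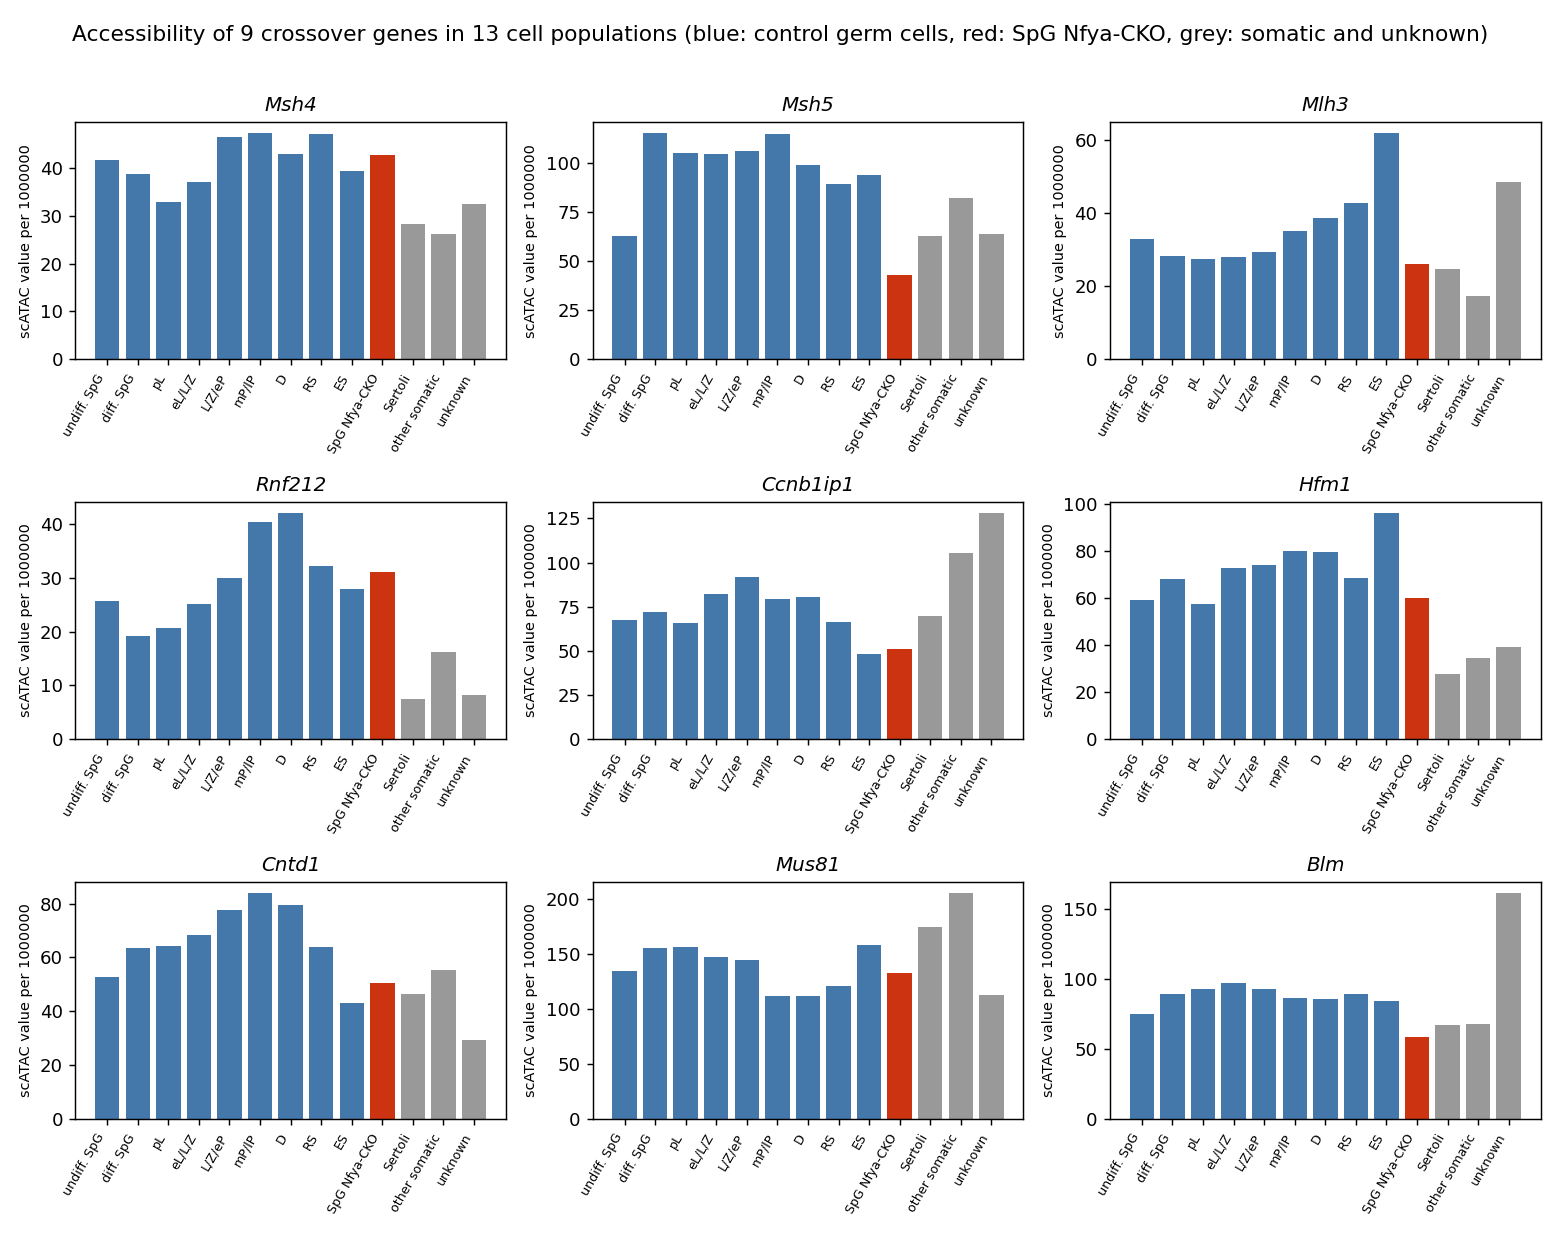
Accessibility of each member (value per 1000000 over nuclear genes, y axis from 0, own scale per gene) in 13 populations, 1 pooled value per bar, with no error since there are no replicates. Msh5 is lowest in spermatogonia of Nfya-CKO, Sertoli cells and undifferentiated spermatogonia, and Rnf212 is lowest in Sertoli and unknown cells.

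Msh5 accessibility was higher from differentiating spermatogonia onward. Its value was 63.1 per 1000000 in undifferentiated spermatogonia, 115.4 in differentiating spermatogonia, 105.2 in pL, 104.9 in eL/L/Z, 106.6 in L/Z/eP, 115.2 in mP/lP, 99.1 in D, 89.3 in RS and 94.0 in ES. The 1.82-fold ratio at the first step was the largest of any member between neighbouring germ cell populations, while Msh5 RNA differed 1.59-fold at that step. Rnf212 went from 19.2 in differentiating spermatogonia to 42.1 in D, while its RNA was highest in undifferentiated spermatogonia at an accessibility of 25.7. Over the 9 populations the correlation between RNA and accessibility ranged from r = -0.20 for Mus81 to 0.87 for Msh4, with -0.04 for Rnf212, -0.12 for Mlh3, 0.50 for Cntd1 and 0.55 for Msh5. These points share their libraries and are a description.

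In spermatogonia of Nfya-CKO 6 of 9 members had a lower accessibility than in control undifferentiated spermatogonia, against 50.5% of all genes, and the median ratio was 0.95 beside 0.998 over all genes. Msh5 had the lowest ratio, from 63.1 to 43.1 per 1000000 (0.69), and its Nfya-CKO value was the lowest of the 13 populations. Ccnb1ip1 went from 67.6 to 51.1 (0.76), Blm from 74.9 to 58.8 (0.79) and Mlh3 from 32.8 to 26.2 (0.81). Cntd1, at 52.9 and 50.5, and Mus81, at 134.7 and 133.0, were within 5% of 1. Msh4 at 41.6 and 42.7, Hfm1 at 59.0 and 60.1, and Rnf212 at 25.7 and 31.1 (1.20) were higher. RNA and accessibility ratios to undifferentiated spermatogonia were not in the same order. Msh5 had the lowest accessibility ratio and the highest RNA ratio. Rnf212 had the highest accessibility ratio and, with the RNA pseudocount of 0.1, the lowest RNA ratio. With a pseudocount of 0.02 and in plain ratios Cntd1 had the lowest RNA ratio (plain ratio 0.45, against 0.54 for Rnf212). Of the 25 partners 21 had a lower value, with a median ratio of 0.86. The Nfya-CKO spermatogonia were 470 scATAC-seq cells with a mean TSS enrichment of 7.99, and the undifferentiated spermatogonia 1230 cells with 12.7; the part of this difference in the ratios was not tested.

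Over the 12652 genes that passed the filter and had a promoter window, the median ratio was 0.987. It was 1.01 over 8151 genes with no match, 0.99 over 2894 genes with 1 match and 0.85 over 1607 genes with at least 2, whose lower and upper quartiles were 0.75 and 0.98. These groups also differed in control undifferentiated spermatogonia, with a median value of 46.9, 48.6 and 66.0 per 1000000, and the part of this in the ratios was not tested. Msh5 and Blm, the members with at least 2 matches, were at 0.69 and 0.79, below and within those quartiles. Ccnb1ip1, with no match, was at 0.76, whereas Msh4, Hfm1 and Mus81, also with none, lay between 0.99 and 1.03. Mlh3, Rnf212 and Cntd1, with 1 match each, ranged from 0.81 to 1.20.

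Against the later control stages the Msh5 difference in accessibility was larger, with a ratio of 0.38 to differentiating spermatogonia and 0.42 to pL. Its Nfya-CKO value, 43.1, is the same in each ratio. The control value was 63.1 in undifferentiated spermatogonia, 115.4 in differentiating spermatogonia and 105.2 in pL, so the ratios differ by control stage alone. Msh5 was the 1 member of 9 at least 2-fold lower in both (against 3.19% and 1.18% of all genes). The median over the members was 0.86 and 0.85 in these comparisons, beside 1.05 and 1.03 over all genes.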

How the data were processed

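Nuclei were measured by scRNA-seq and scATAC-seq on BD Rhapsody. Per the submitters' processing notes and the methods, the authors aligned RNA with STAR 2.7.10b and fragments with BWA 0.7.12 to mm10, collapsed UMIs, kept cells with at least 500 genes and under 5% mitochondrial UMIs (Seurat 5.2.1), or at least 1000 fragments and a TSS score of 4 (ArchR 1.0.3), and removed doublets. The deposited matrices hold natural log values of 1 plus a mean that sums to 10000 per population. In the RNA matrix the mean is over cells. The deposited percent of mitochondrial UMIs per cell, averaged over cells, equals that matrix's share in every population. No such comparison is given for the scATAC-seq matrix. The authors also deposited counts of UMIs and fragments per cell and the TSS enrichment, a ratio. 22 further columns were not used.

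Values were turned back with exp(value) - 1 in Python 3.11.15 (numpy 2.4.6, pandas 2.3.3). UMIs behind a value are approximate (level times total UMIs of the population). RNA calls (at 2-fold) and log2 ratios used a pseudocount of 0.1 and accessibility ratios 1; RNA folds of single genes are plain ratios. No p-value was computed, as each condition is 1 library. All 9 members passed both filters. The text names all members, their 3 most similar genes with a highest value of at least 0.5 in part, and partners at least 2-fold apart or with a role beside a member. Some listed partner genes are not reported here. Promoters are RefSeq windows. Members and lists were chosen with earlier results of these data known. The alternatives numbered 71 planned and 4 added after seeing the data.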

Additional observations from a re-analysis of the deposited data

How the results depend on the processing

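No paired analysis was possible because each condition has 1 library and the matrices pool the libraries, so no library could be left out. Of 189 alternative values 151 stayed within 1.5-fold and on the same side. The median RNA log2 ratio of the members between spermatogonia of Nfya-CKO and controls was -0.19 against differentiating spermatogonia and -0.29 against preleptotene, where the count of members at least 2-fold lower was 1 and 0; its sign thus changed from that of 0.03. With one or both of these control stages the sign of the RNA ratio also changed for Msh4, Msh5, Rnf212, Ccnb1ip1, Mus81 and Blm, and that of the accessibility ratio for Hfm1. With mitochondrial genes in the total, the median accessibility ratio of mP/lP over undifferentiated spermatogonia was 0.79, on the other side of 1 from the 1.17 without them, since the mitochondrial share was 60.3% and 40.6%. The Nfya-CKO accessibility ratios of Msh4 and Hfm1 then also fell below 1, to 0.93 for both. Counts at single steps were fragile. With a pseudocount of 0.5 they became 0 higher into differentiating spermatogonia, 0 lower into preleptotene, 0 higher into eL/L/Z, 0 lower into mP/lP and 0 lower into RS. Centred on the median of all genes they became 1 lower into differentiating spermatogonia, 1 higher into eL/L/Z, 1 higher and 0 lower into mP/lP, 0 lower into RS and 1 lower into ES. Without a pseudocount, chosen after seeing the data, they became 2 higher and 1 lower into differentiating spermatogonia, 1 higher into mP/lP, 5 lower into RS and 1 lower into ES, and 1 member (Cntd1) was lower in Nfya-CKO spermatogonia. The cause of these changes in the counts was not tested, and no share of all genes was computed without a pseudocount. The count of members at least 2-fold higher in prophase was 4 to 7 over the alternatives. The share of all genes at least 2-fold apart in RNA between Nfya-CKO and control spermatogonia was 7.17%, and 4.05% without a filter. Over 13 populations, 5 of the 27 most similar genes were shared with the list over 9. The depth limits Mus81 most, with about 48 and 54 UMIs in Nfya-CKO and control spermatogonia.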

Other observations

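The 99 cells that the authors left unknown came from all 5 libraries. Their accessibility of Blm was 161.6 per 1000000 and of Ccnb1ip1 128.0, the highest of the 13 populations for both genes, on 54 scATAC-seq cells. In RNA, Ccnb1ip1 was at 0.350 UMIs per 10000, about 26 UMIs, and Cntd1 at 0.593, about 44 UMIs. Among the partners, Recql5, a helicase, was highest in RS at 1.70 UMIs per 10000, 2.13-fold above the next population, and 3.39-fold lower in ES.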
